A study of Mus musculus with 12 samples.

Results

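The cytosolic ribosomal protein genes, which encode the protein parts of the ribosomes that translate mRNA outside mitochondria, were followed in mouse erythroleukemia (MEL) cells with and without knockdown of G9a. A gene was taken as a member where a probe set was annotated to it alone and its symbol was Rpl or Rps with digits and at most a trailing a, x or l, or was Rplp0, Rplp1, Rplp2 or Rpsa. Kinases of the Rps6k family and pseudogenes were left out. The probe set with the highest mean GCRMA signal stood for each gene. The rule found 46 genes among the 18193 with a probe set of their own, 24 of the large subunit and 22 of the small subunit. These 46 had 100 such probe sets, and 23 had 1 each. A further 28 symbols that fit the rule occurred only on probe sets annotated to several genes, and no gene is named from those.

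The groups were 3 arrays of G9a knockdown cells and 3 arrays of wild type MEL cells, each numbered 1 to 3. MEL is an established mouse cell line of erythroid leukemia cells. Both groups carry the same protocol text, which gives 2% dimethyl sulfoxide for 4 days to start erythroid differentiation and doxycycline at 5 µg/ml to induce the knockdown. Whether wild type cells had doxycycline is not stated, nor is the knockdown construct, nor whether the numbered arrays came from separate cultures. A p-value here thus reflects variation among 6 arrays, some of which could be technical, and the number of arrays limits the precision. The title of the series concerns G9a, a histone H3 lysine 9 methyltransferase encoded by Ehmt2, and β-globin expression. The comparison of the design is knockdown against wild type. Each array was deposited in 2 summaries, GCRMA (log2 values) and MAS5 (linear intensity, used here as log2 of the value plus 1). They are 6 arrays read in 2 ways and were never counted as further replicates.

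Ribosomal proteins are made in step with ribosomal RNA and with each other. Their genes are dispersed over the genome and are among the most highly transcribed in growing cells. Many of their mRNAs begin with a C followed by a run of pyrimidines, the terminal oligopyrimidine tract, through which translation of these mRNAs is tied to the mTOR pathway. In red cell precursors ribosomal proteins are known for Diamond-Blackfan anemia, an inherited failure of red cell production in which 1 copy of such a gene is mutated.

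The tract is shown here for the members that carry it, because it is the sequence feature by which these mRNAs are controlled together. RefSeq start sites (GRCm38.p6) were listed for 40 of the 46 genes. At the annotated first base of a transcript, on the sense strand, 8 of these 40 genes (20%) had a C followed by at least 4 letters that were each C or T. The same was found for 805 of 26985 other genes of the table (2.98%) and for 0 of 69 mitochondrial ribosomal protein genes. With the C allowed up to 5 bases to either side of the annotated start, the shares were 47.5% of members and 21.1% of other genes. The share of mitochondrial ribosomal protein genes was then 24.6%. Each sequence below runs from 20 bases before the start to 20 bases from it, with the tract in capitals, so that the first capital is the annotated first transcribed base.
Rpl14, chr9:120571497-120571536, plus strand: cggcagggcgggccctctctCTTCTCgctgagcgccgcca
Rpl35, chr2:39005112-39005151, minus strand: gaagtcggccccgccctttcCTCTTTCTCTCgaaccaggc
Rpl38, chr11:114668560-114668599, plus strand: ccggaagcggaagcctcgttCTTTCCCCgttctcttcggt
Rplp2, chr7:141447631-141447670, plus strand: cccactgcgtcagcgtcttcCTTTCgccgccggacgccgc
Rps6, chr4:86857348-86857387, minus strand: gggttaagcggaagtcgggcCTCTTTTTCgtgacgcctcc
Rps10, chr17:27635225-27635264, minus strand: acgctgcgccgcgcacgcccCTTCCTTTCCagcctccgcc
Rps18, chr17:33955646-33955685, minus strand: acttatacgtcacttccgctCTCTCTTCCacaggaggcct
Rps27, chr3:90213629-90213668, minus strand: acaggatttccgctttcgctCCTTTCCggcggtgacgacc
The tracts were 5 to 11 bases long, shortest in Rplp2 and longest in Rpl35. Rpl37 and Rps15, the members with the lowest p between groups, had no such tract at the annotated base.
Rpl37, chr15:5116593-5116632, plus strand: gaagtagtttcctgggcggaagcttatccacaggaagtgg
Rps15, chr10:80292411-80292450, plus strand: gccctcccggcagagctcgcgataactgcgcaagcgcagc
No match says only that these letters do not begin at that base, and an annotated start can lie some bases from the base where transcription begins.

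Before the members, the knocked-down gene and the cell type were checked. Ehmt2, at the dimmer of the 2 probe sets examined, read 4.29, 4.28 and 4.16 on the GCRMA log2 scale in the knockdown arrays, against 7.43, 7.07 and 6.82 in wild type arrays. Its difference of −2.86 (95% interval −3.27 to −2.46) was called by limma (adjusted p = 0.0216), the one call among 17028 probe sets tested. The brighter Ehmt2 probe set 1460692_at differed by −2.87, with a limma adjusted p of 0.0719, and of 0.0316 with the replicate number as a block. Of 10 erythroid marker genes with a probe set of their own, 9 passed the filter on dim signal, among them Gata1, Klf1 and Alas2, while Hba-a1 did not. Of 16 markers of myeloid cells, megakaryocytes, lymphocytes, fibroblasts and endothelium, 2 passed, Csf1r and Pf4, and Mpo, Cd3e and Col1a1 were among the 14 below it. The 3′ minus 5′ log2 signal of the Gapdh control probe sets was 0.033, 0.052 and 0.042 in knockdown arrays and 0.015, 0.061 and 0.16 in wild type arrays. Wild type array 3 was thus the highest of the 6. In bulk RNA, fewer cells with a transcript and less of it per cell cannot be told apart.

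Members lay at the top of the array's range. Of the 46 genes, 42 passed the filter of log2 4 in at least 3 arrays, 22 of the large and 20 of the small subunit. Of these 42, 31 (73.8%) had a mean of log2 14 or more, compared with 1.46% of all tested probe sets. The highest GCRMA value of any array, control probe sets included, was 16.49, and 11 members had means within 1 of it and 4 within 0.5. Those 4 were Rps29 (mean of 6 arrays 16.42), Rps20 (16.03) and the stalk genes Rplp0 (16.02) and Rplp2 (16.01), and Rps28 followed at 15.89. Rplp0 and Rplp2 encode parts of the P stalk, the arm of the large subunit that recruits elongation factors. The dimmest probe sets tested were those of Rpl12 (4.94), Rps27 (5.36), Rpl39 (6.85), Rps6 (7.13) and Rps25 (8.38). Signals of different probe sets depend on their probes, so these values say where a probe set lies in the range and not how much mRNA of each gene there was.

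Below the filter lay Rps16, Rps4l, Rpl39l and Rpl3l. Rpl3l, which replaces Rpl3 in heart and skeletal muscle, read 2.79 to 2.81 in knockdown arrays and 2.77 to 2.89 in wild type arrays. Rpl39l, a testis paralog of Rpl39, read 2.50 to 2.52 in knockdown arrays and 2.49 to 2.58 in wild type arrays. Rps4l, a paralog of Rps4x, read 2.29 to 2.32 in knockdown arrays and 2.30 to 2.36 in wild type arrays. Rps16 encodes a core protein of the small subunit, yet its one probe set of its own read 2.02 to 2.05 in knockdown arrays and 2.03 to 2.10 in wild type arrays. In GCRMA all 4 lay under the median of each array, which was 2.99 to 3.10, and the groups overlapped.

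No ribosomal protein gene was called between the groups. In the limma fit of GCRMA values, 0 of 42 members had an adjusted p under 0.05 (smallest adjusted p = 0.751), against 0.00587% of all tested probe sets. With the replicate number as a block 0 were called as well (smallest adjusted p = 0.302), against 0.0117%. At an unadjusted p under 0.05, 2 members had higher signal in the knockdown, where 2.59% of all probe sets did, and 0 had lower signal, where 3.28% did. With the block these counts were 5 and 0, against 6.44% higher and 7.24% lower over all probe sets. Without knockdown array 1, knockdown array 2 or wild type array 2 the count was 1, and without wild type array 1 it was 5. The groups did not overlap, with the knockdown above, for 6 members (5.04% of all probe sets), and with the knockdown below for 0 (7.33%). The 6 were Rpl27, Rpl37, Rps3, Rps7, Rps10 and Rps15. After each array was centred on its median there were 10 above, against 5.28% of all probe sets.

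The differences were small and mostly of one sign. Knockdown minus wild type was positive for 39 of 42 members, with a median of 0.092 on the log2 scale and a range of −0.14 (Rps27l) to 0.48 (Rpl37). Over all 17028 tested probe sets 48.3% were positive and the median was −0.0083. The 95% interval lay within 0.5 of 0 for 33 members, so for those a larger difference in GCRMA signal was outside the interval. In MAS5 the interval lay within 0.5 of 0 for only 2 members. Small subunit genes were positive in 19 of 20, with a median of 0.14, and large subunit genes in 20 of 22, with a median of 0.071. The difference between the subunits was not tested. By replicate number, the median member differed by 0.085 between the 2 arrays numbered 1, by 0.14 between those numbered 2 and by 0.057 between those numbered 3. After quantile normalization of the tested probe sets the median was 0.058, with 30 of 42 positive and Rps29, the highest tested probe set of every array, at 0 by construction. Rpl4, Rpl7, Rpl12, Rpl19, Rpl38, Rps20, Rps24 and Rps26, all under 0.06 before, were negative under that scaling, at −0.065 or nearer to 0. The median was 0.093, with 39 positive, after each array was centred on its median, and 0.058 without knockdown array 1.

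**Figure D1:**
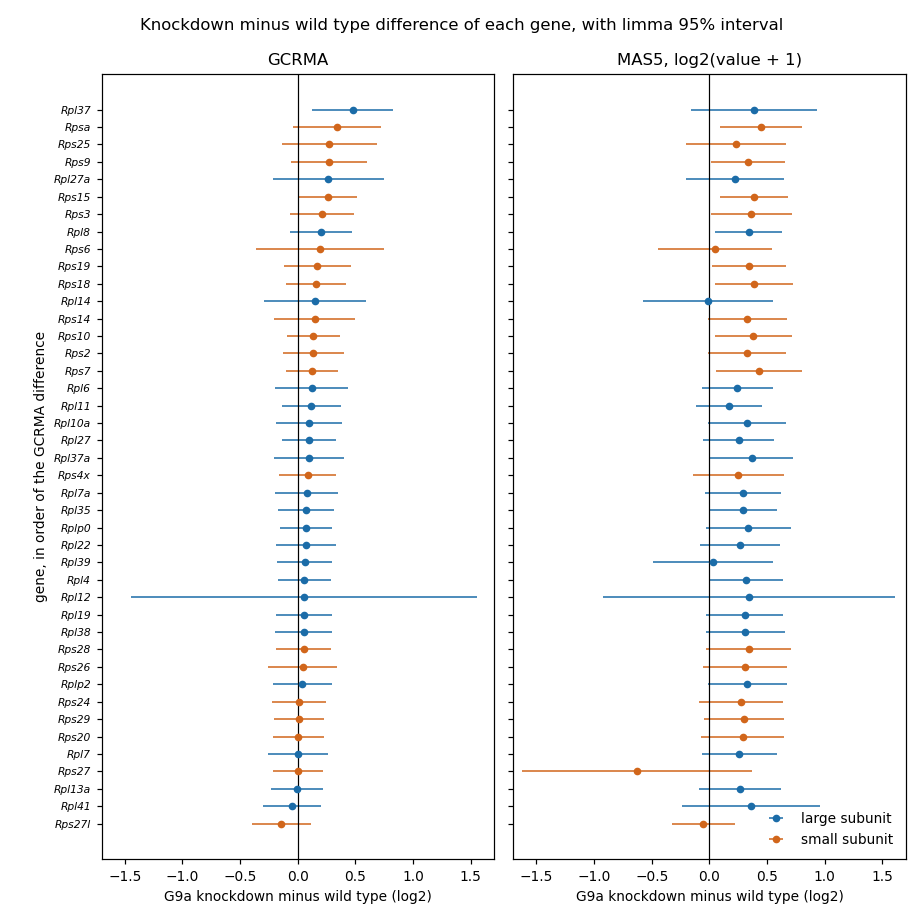
Knockdown minus wild type difference (log2, horizontal axis) of the 42 members tested, in order of the GCRMA difference, in GCRMA (left) and MAS5 (right). Points are limma estimates, bars 95% intervals, blue the large and orange the small subunit. In GCRMA 39 points lie right of 0, with a median of 0.092, and in MAS5 39 do, with a median of 0.31.

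Rpl37, a zinc-binding protein of the large subunit, had the lowest p. At its one probe set, 1438291_x_at, it read 11.15, 10.71 and 10.85 in the knockdown arrays, against 10.30, 10.48 and 10.51 in wild type. All 3 knockdown values lay above all 3 wild type values. Its difference of 0.48 (95% interval 0.12 to 0.83), a 1.39-fold ratio, had a limma unadjusted p of 0.0155 and an adjusted p of 0.751, and was 0.29 without both arrays numbered 1. Rps15, whose tail reaches the decoding site of the small subunit, read 14.74, 14.70 and 14.69 in the knockdown, against 14.58, 14.38 and 14.39 in wild type. Its groups did not overlap either, and it differed by 0.26 (0.011 to 0.51), with an unadjusted p of 0.0430 and an adjusted p of 0.835 in limma. Its other probe set, 1416089_at, differed by 0.23.

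The next 4 members by p were Rpsa, Rps9, Rps3 and Rpl8. Rpsa, a small subunit protein also known as a laminin receptor precursor, read 14.67, 14.51 and 14.22 in the knockdown and 14.32, 13.98 and 14.06 in wild type. Knockdown array 3 lay below wild type array 1, so the groups overlapped, and the difference was 0.34 (−0.041 to 0.73). With the block Rpsa had an unadjusted p of 0.0267 and a limma adjusted p of 0.317. Rps9, at the mRNA entry channel, read 14.06, 13.83 and 13.79 in the knockdown, against 13.82, 13.48 and 13.57 in wild type. Its groups overlapped and it differed by 0.27, but its dimmest probe set, 1426958_at, differed by −0.11. Rps3, which lines the same channel and also acts in DNA repair, read 15.07, 15.06 and 14.92 in the knockdown, against 14.90, 14.65 and 14.85 in wild type. The lowest knockdown value lay just above the highest wild type value, and the difference was 0.21, or 0.14 without wild type array 2. Rpl8, near the peptidyl transferase centre, read 14.47, 14.36 and 14.32 in the knockdown and 14.33, 14.11 and 14.10 in wild type. Wild type array 1 lay just above knockdown array 3, so the groups overlapped, and Rpl8 differed by 0.20. None of these 4 had an unadjusted p under 0.05 without the block, and their limma adjusted p-values were 0.852 to 0.858.

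On the deposited scale only Rps27l, Rpl41 and Rpl13a had a negative GCRMA difference. Rps27l, a p53-responsive paralog of Rps27, read 12.90, 12.68 and 12.85 in the knockdown, against 12.98, 12.98 and 12.90 in wild type. Its groups met at knockdown array 1 and wild type array 3, and its difference of −0.14 (−0.40 to 0.12) had a limma adjusted p of 0.882. All 3 tested probe sets of Rps27l were negative in both summaries, and the difference was −0.053 in MAS5. Without knockdown array 2 it was −0.074 in GCRMA. Rpl41, the smallest ribosomal protein, differed by −0.049, and by −0.0056 did Rpl13a, which is known in human cells for a second role as a translational silencer. Both had positive differences in MAS5, at 0.36 and 0.27, and Rpl41 also when its tested probe sets were averaged (0.088), as did Rpl13a (0.11). Their sign therefore depended on the summary and on the probe set.

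Members of the list of genes mutated in Diamond-Blackfan anemia or deleted in the 5q- syndrome, known from human patients, were measured for 13 of 22. None was called (smallest limma adjusted p = 0.877). All 13 had a positive GCRMA difference, with a median of 0.072, and 9 did after quantile normalization, with a median of 0.036. Rps19, the gene most often mutated in the anemia, read 14.98, 14.93 and 14.84 in the knockdown and 14.92, 14.62 and 14.69 in wild type. Its groups overlapped at wild type array 1, and it differed by 0.17 (SE 0.12). Rps14, the gene of the 5q- syndrome, differed by 0.15, Rps7 by 0.12, Rps10 by 0.14 and Rps26 by 0.044. Rps20, Rps24, Rps27 and Rps29 differed by 0.0008 to 0.013, Rps28 by 0.051. Rpl11, which as part of the 5S ribonucleoprotein binds the p53 regulator MDM2, differed by 0.12, Rpl27 by 0.099 and Rpl35 by 0.072. The stalk genes Rplp0 and Rplp2 differed by 0.070 and 0.041. Among paralogs, Rpl22 differed by 0.069, Rpl39 by 0.061 and Rps4x by 0.085.

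**Figure D2:**
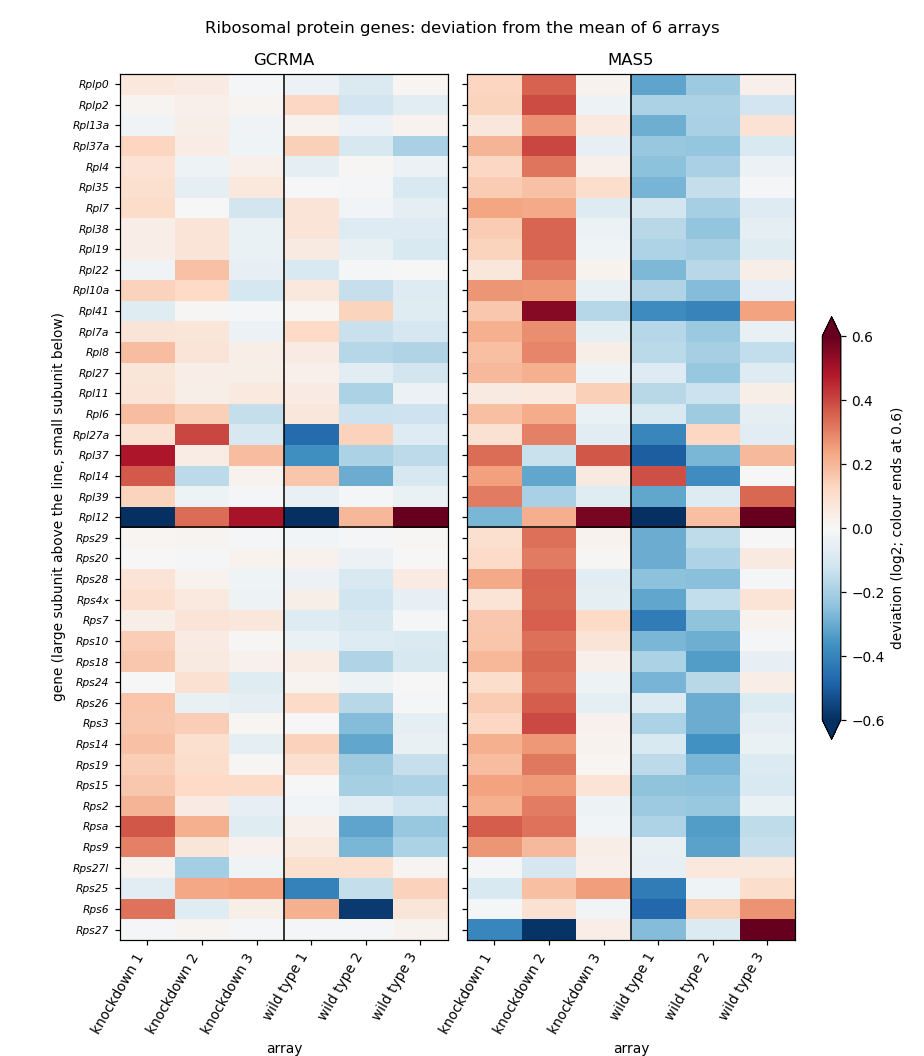
Deviation of each tested member (rows, large subunit above the line) from its mean over the 6 arrays, for knockdown arrays 1 to 3 and wild type arrays 1 to 3 (columns), in GCRMA (left) and MAS5 (right). Red is above and blue below the mean, in log2 units. In MAS5 37 members lie above their mean in knockdown arrays 1 and 2, against 1 in wild type array 1 and 4 in wild type array 2.

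Single arrays differed in how many members lay above their own mean. In GCRMA these were 36, 34 and 19 of 42 in knockdown arrays 1 to 3, against 25, 5 and 10 in wild type arrays 1 to 3. The median deviation was 0.095, 0.051 and −0.0080 in the knockdown, against 0.027, −0.094 and −0.064 in wild type. Wild type array 1 thus lay above knockdown array 3, and the arrays of the 2 groups overlapped. In MAS5 the counts were 37, 37 and 23 in the knockdown and 1, 4 and 17 in wild type. The median deviations were 0.16, 0.31 and 0.017 in the knockdown, against −0.24, −0.22 and −0.024 in wild type. There the groups did not overlap, but the arrays numbered 3 differed by only 0.026 at the median member, and those numbered 1 and 2 by 0.39 and 0.50.

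MAS5 gave the members larger differences than GCRMA. The median was 0.31 in MAS5 and 0.092 in GCRMA, with 39 of 42 positive in each, while the MAS5 median over all tested probe sets was 0.010 with 52.1% positive. The limma fit of MAS5 values called 0 members (smallest adjusted p = 0.762), as it did of all probe sets (0%). At an unadjusted p under 0.05, 10 members had higher signal in the knockdown, against 3.45% of all probe sets, and 0 had lower signal, against 3.01%. With the block these counts were 6 and 1, against 5.5% and 5.06%, the 1 lower member being Rps27, chosen after its values were seen. The count of 10 was 0 without knockdown array 1, knockdown array 2 or wild type array 2, 3 without wild type array 1 and 21 without knockdown array 3. The groups did not overlap, with the knockdown above, for 24 members (6.64% of all probe sets), and with the knockdown below for 0 (6.04%). After quantile normalization 2 members lay above, against 5.83% of all probe sets.

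Other bright probe sets moved with the members in MAS5. Of 118 probe sets at log2 14 or more without a ribosomal protein symbol, 100 had a positive MAS5 difference (84.7%), with a median of 0.15, and 44 had a positive GCRMA difference, with a median of −0.041. In MAS5, 15 of the 118 had higher signal in the knockdown at an unadjusted limma p under 0.05, and 0 had lower signal. Over all probe sets these shares were 3.45% and 3.01%. The MAS5 groups did not overlap for 32 of them with the knockdown above (6.64% of all probe sets), and for 2 with it below (6.04%). In GCRMA the groups did not overlap for 8 with the knockdown above (5.04% of all probe sets), and for 22 with it below (7.33%). The MAS5 median of these other probe sets was 0.060 at log2 13 to 14, 0.11 at 14 to 15 and 0.27 at 15 to 17. In the bin from 15 to 17, where 19 members lay, the members' median was 0.31 in MAS5 and 0.054 in GCRMA. The 33 other probe sets of that bin had 0.27 and −0.0058. In the bin from 14 to 15 the 12 members had 0.33 in MAS5 and 0.14 in GCRMA, and the 85 others 0.11 and −0.053. The MAS5 shift at the top of the range was therefore present in other genes too, and its part in the members' MAS5 differences was not tested. When the MAS5 values of the tested probe sets were quantile normalized, which gives each array the same distribution, the members' median was 0.029, with 29 of 42 positive, and the median of the 118 others was −0.048.

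**Figure D3:**
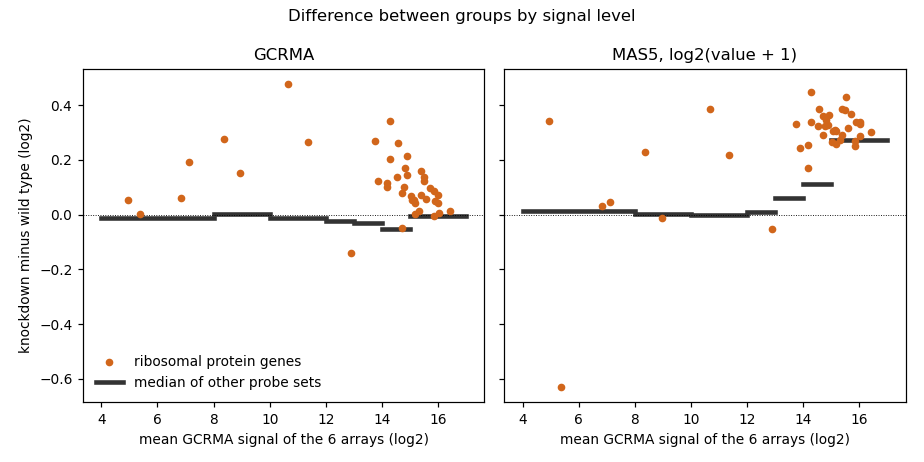
Knockdown minus wild type difference (log2, vertical axis) against the mean GCRMA signal of 6 arrays (log2), in GCRMA (left) and MAS5 (right). Orange points are the 42 members tested and dark bars the median of other probe sets in each bin of signal. In MAS5 the bar climbs to 0.27 in the bin from 15 to 17, and in GCRMA it lies at −0.0058 there.

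The other bright probe sets were also read array by array. Other probe sets at log2 14 or more had median MAS5 deviations of 0.053, 0.19 and 0.0068 in knockdown arrays 1 to 3, against −0.18, −0.094 and 0.025 in wild type arrays. Wild type array 3 thus lay above knockdown array 3, so for these probe sets the groups overlapped. After quantile normalization of MAS5 the members' deviations were 0.043, 0.0020 and 0.0058 in the knockdown, against −0.0092, −0.039 and −0.0095 in wild type. The 2% trimmed mean of every MAS5 array was 500, so the deposited arrays had been scaled to 1 target while their highest values differed. The highest MAS5 value was 72156, 85035 and 68564 in the knockdown arrays and 54928, 60853 and 67406 in wild type arrays, so each knockdown array exceeded each wild type array.

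**Figure D4:**
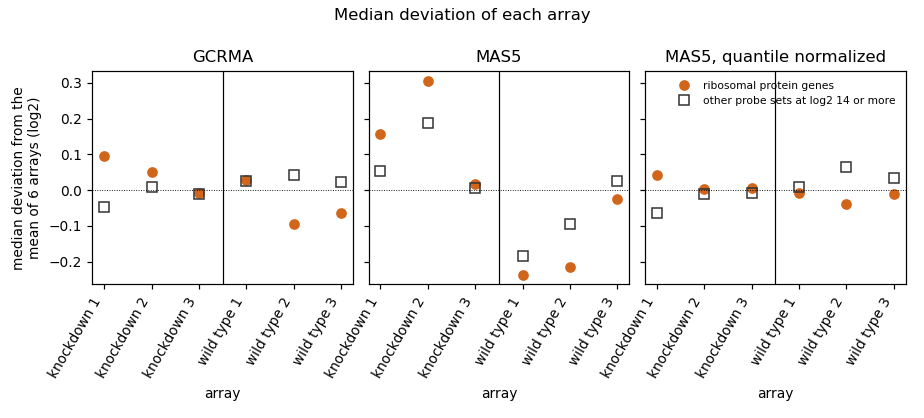
Median deviation from the mean of 6 arrays (log2) in each array, knockdown left of the line and wild type right of it, for GCRMA, MAS5 and quantile-normalized MAS5. Filled points are the 42 members and open squares 118 other probe sets at log2 14 or more. The members' medians reach 0.31 in knockdown array 2 of MAS5 and at most 0.095 in GCRMA.

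The members also varied less in GCRMA than in MAS5 where signal was high. At log2 15 to 17 the members' median SD over the 6 arrays was 0.074 in GCRMA and 0.22 in MAS5. The other probe sets of that bin had 0.093 and 0.21 in the same order, so this was not particular to the members. The 5 members with the widest gap between summaries were Rps27, Rpl41, Rps7, Rps29 and Rplp2. Rps27 read 5.35, 5.38 and 5.35 in knockdown arrays and 5.35, 5.35 and 5.38 in wild type arrays in GCRMA. In MAS5 it read 7.71, 7.52 and 8.14 in the knockdown, against 7.84, 8.03 and 9.39 in wild type. Its GCRMA values were nearly constant, whereas wild type array 3 stood above the others in MAS5, and its differences were 0.0008 and −0.63. Rpl41 differed by 0.36 in MAS5 and −0.049 in GCRMA. Rps7 differed by 0.43 and 0.12, Rps29 by 0.30 and 0.012, and Rplp2 by 0.33 and 0.041 in the same order.

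Where a gene had several probe sets, they mostly shared a sign. Of 18 members with at least 2 tested probe sets of their own, 14 had 1 sign throughout in GCRMA and 18 in MAS5. The exceptions in GCRMA were Rpl13a, Rpl41, Rps9 and Rps24. Rps10, Rps18, Rps24 and Rpl35 had the most probe sets, 6 each, and in GCRMA the tested ones differed by 0.060 to 0.21 for Rps10, 0.16 to 0.25 for Rps18, −0.022 to 0.25 for Rps24 and 0.072 to 0.12 for Rpl35. Over the 82 tested probe sets of members 74 were positive, with a median of 0.10. Probe sets annotated to several genes, with a ribosomal protein symbol among them, were positive in 91 of 99, with a median of 0.11 in GCRMA and 0.34 in MAS5. These probe sets can read sequences shared with ribosomal pseudogenes, as can the 16 representatives whose suffix marks probes shared with other transcripts.

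The replicate numbers were compared too, and the F test without trend or robust moderation called no member over all 6 arrays. The limma F test over the 3 numbers, with group as a term, called 383 of 17028 GCRMA probe sets (2.25%) and 0 of 42 members (smallest adjusted p = 0.0595), with 4 members at an unadjusted p under 0.05, against 24% of all probe sets. In MAS5 it called 0 members (smallest limma adjusted p = 0.215, 3 at an unadjusted p under 0.05, against 16.6% of all) and 0% of all probe sets. Without knockdown array 3 the F test called 1 member and 5.51% of all probe sets in GCRMA, without wild type array 3 1 member and 4.72%, and with trend and robust moderation 1 member and 4.53%. The count of 383 was 0 without knockdown array 1, without wild type array 1 or without the filter, 43 without knockdown array 2 and 200 without wild type array 2. Number 1 minus number 3 called 1 member, Rpl12, against 3.04% of all probe sets. The median member lay 0.10 higher in number 1 than in number 2 and 0.096 higher than in number 3 in GCRMA, against 0.039 and 0.040 over all tested probe sets. In MAS5 those member medians were −0.061 and −0.039, so the order of the numbers depended on the summary.

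Rpl12, at the base of the stalk, had the lowest p over the numbers. It read 4.19, 5.27 and 5.44 in knockdown arrays 1 to 3 and 3.64, 5.14 and 5.96 in wild type arrays 1 to 3. Both arrays numbered 1 were low, and number 1 minus number 3 was −1.78 (limma adjusted p = 0.0391). Its group difference was 0.054, with an interval of −1.44 to 1.55, the widest of the members. Rpl14 read 9.32, 8.80 and 8.98 in the knockdown, against 9.13, 8.66 and 8.86 in wild type, so that both arrays numbered 1 were high. Rps6, the protein phosphorylated by S6 kinases, read 7.46, 7.06 and 7.16 in the knockdown, against 7.35, 6.56 and 7.20 in wild type. It was lowest in number 2 of each group. Rps25, needed for initiation at some viral internal entry sites, read 8.32, 8.61 and 8.62 in the knockdown, against 7.97, 8.23 and 8.51 in wild type. Rpl27a read 11.46, 11.77 and 11.27 in the knockdown, against 10.91, 11.51 and 11.29 in wild type, highest in number 2 of each group. These 5 lay below log2 12, where 8 of the 42 members were.

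**Figure D5:**
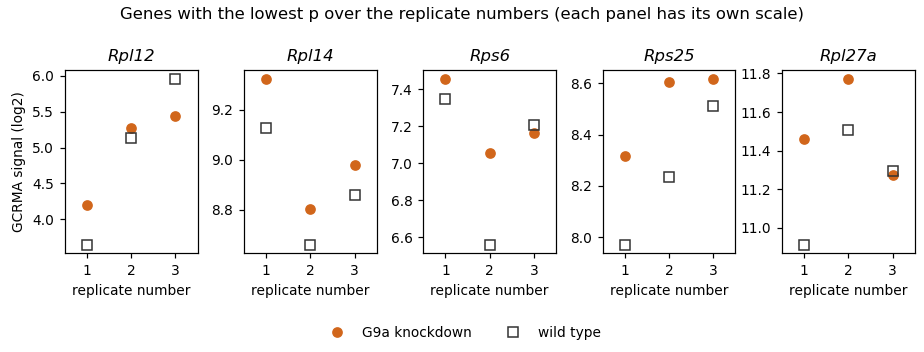
GCRMA signal (log2, each panel with its own scale) of the 5 members with the lowest p over the replicate numbers, by replicate number. Filled points are knockdown arrays and open squares wild type arrays. Rpl12 is low in both arrays numbered 1, at 4.19 and 3.64, and Rpl14 is high in both, at 9.32 and 9.13.

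Some dim probe sets of the bright members Rpl41 and Rps24 were also low in both arrays numbered 1, and are named here after their values were seen. Dim probe sets of other bright members went the other way. Rpl22 at 1448398_s_at lay 0.40 higher in number 1 than in number 2, and Rpl37a at 1416218_x_at 0.11 higher. Rpl41 at 1454639_x_at read 6.22, 7.42 and 7.21 in the knockdown, against 5.61, 7.23 and 7.26 in wild type, and was the 1 of the 82 tested probe sets of members that the F test called (limma adjusted p = 0.0424). Rpl41 at 1433530_at and Rps24 at 1455195_at were lowest in number 1 of each group as well, with adjusted p of 0.0745 and 0.148 in the limma F test. At their bright probe sets Rpl41 and Rps24 differed between numbers 1 and 3 by 0.011 and 0.047.

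Group differences were also set beside the start tract. The 8 tested members with the tract had a median GCRMA difference of 0.10 and a range of 0.0008 (Rps27) to 0.19 (Rps6). The 29 with a listed start but no tract at that base had a median of 0.099 and a range of −0.14 to 0.48. In MAS5 the medians were 0.30 and 0.32 in the same order. The difference between these sets was not tested.

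Other genes of translation gave the following values, and 0 were called by limma in any list. Ribosomal proteins whose symbols fall outside the rule were positive in 4 of 4, with a median of 0.094. Among them Fau, a ubiquitin-like fusion with ribosomal protein S30, read 14.11, 14.22 and 13.92 in the knockdown, against 13.88, 13.77 and 13.71 in wild type, and Rps3a1 differed by 0.091. Fau's groups did not overlap, with a difference of 0.30 and a limma adjusted p of 0.845. Elongation factors and other genes known for the start tract were positive in 12 of 17, with a median of 0.091 in GCRMA (0.076 after quantile normalization) and 0.27 in MAS5 (0.14). Of these, Eif3f, a subunit of initiation factor 3, differed by 0.38, and Eef2, the translocation factor, by 0.28, with groups that did not overlap (limma adjusted p of 0.789 and 0.852).

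Ribosome assembly genes were divided, with 32 of 53 positive and a median of 0.015 in GCRMA and 0.010 in MAS5. Ppan, of large subunit assembly, read 10.94, 11.01 and 10.85 in the knockdown and 10.42, 10.30 and 10.66 in wild type, a difference of 0.47 without overlap (limma adjusted p = 0.714). Utp6, of the small subunit processome, differed by −0.35 (adjusted p = 0.794 in limma). Mitochondrial ribosomal protein genes, which encode the separate ribosome of mitochondria, were positive in 16 of 76, with a median of −0.072 in GCRMA and −0.059 in MAS5. After quantile normalization the medians were −0.064 and −0.052. In GCRMA the knockdown lay below wild type without overlap for 13 of the 76, against 7.33% of all probe sets, and above it for 0. In MAS5 these counts were 6, against 6.04%, and 2, against 6.64%. Mrps34 read 8.91, 8.98 and 8.80 in the knockdown, against 9.23, 9.24 and 9.10 in wild type, and differed by −0.29, while Mrpl48 differed by −0.36 (limma adjusted p of 0.794 and 0.814). The cytosolic and mitochondrial medians thus had opposite signs in both summaries, also after quantile normalization, a difference that was not tested.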

How the data were processed

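Affymetrix mouse arrays of 6 RNA samples were used, deposited as 12 columns. The submitters' processing notes name MAS5 and GCRMA, with no version or setting. What the authors deposited was linear intensity for MAS5 and log2 signal for GCRMA. The 64 control probe sets among 45101 were not used. Gene names came from the platform annotation, which gives 1 gene for 34958 probe sets, several for 932 and none for 9211. Testing covered 17028 probe sets that exceeded log2 4 on 3 or more of the 6 arrays, with limma 3.58.1 in R 4.3.3 (lmFit, eBayes, group as the only term, two-sided, Benjamini-Hochberg over all tested, threshold 0.05). MAS5 was tested as log2(value + 1) on the same probe sets. The group fit and the replicate number fit were tested on data simulated from the GCRMA values, with arrays drawn independently. The simulated shifts were larger than any member's difference between groups. MAS5 values and the fit with the replicate block were not simulated.

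The members and gene lists were chosen with earlier results of these data known. Members with full statistics were the 6 higher and all lower ones by lowest p, the 5 brightest and 5 dimmest, those below the filter, the stalk, anemia and paralog genes, the 5 lowest p over replicate numbers and the 5 widest gaps between summaries. From other lists the 2 lowest p were named.

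A knockdown array and the wild type array with its number deviated together from their group means (r = 0.72, 0.57 and 0.37 over probe sets), while arrays with unlike numbers gave −0.59 to 0.17. The deviations of a group's arrays cancel for each probe set, so positive values for like numbers force lower values for unlike numbers. The values for unlike numbers are therefore no separate evidence of pairing. The numbers were treated as pairing the arrays only in the alternative fit with the block, from the data and not the labels. Intervals and p-values of the main group tests had group as the only term and did not use the pairing. Blocked values stand where they changed a count. Alternatives covered the block, filters, array weights, moderation, scaling, probe set choice, pseudocount and leaving out arrays.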

Additional observations from a re-analysis of the deposited data

How the results depend on the processing

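The count of 0 members called between groups held in GCRMA under 18 alternatives and in MAS5 under 19, by limma. The GCRMA median kept its sign under all 18, from 0.058 to 0.12. The replicate block changed no call of a member between groups, while over all tested probe sets it gave 2 calls in GCRMA in place of 1. The count of 2 members at an unadjusted p under 0.05 was 5 with the replicate block and with array weights, 6 without the filter, 4 with eBayes using trend and robust, 1 with quantile normalization, 0 with only probe sets without a suffix (16 genes), 1 without both arrays numbered 1 and 1 to 5 when single arrays were left out. Chosen after seeing the data, leaving out both arrays numbered 3 gave 0. Probe sets of several genes in place of members gave 6 of 99, 5 higher and 1 lower in the knockdown. Over all probe sets 2.59% were higher and 3.28% lower at that threshold in the main fit. Apart from the replicate block, the other alternative counts have no share over all probe sets beside them, so they are not compared with one. The MAS5 median of 0.31 was 0.029 with quantile normalization and 0.44 without both arrays numbered 3. The MAS5 count at an unadjusted p under 0.05 was 26 of 42 with trend and robust and 0 with quantile normalization. No share over all probe sets is given for those MAS5 counts, so they are not read as particular to the members. The replicate number test called 1 member with trend and robust (4.53% of all probe sets), and 0 to 1 when single arrays were left out (0 to 938 of all 17028). Rpl13a, from −0.024 to 0.0043 when single arrays were left out, turned positive in MAS5 (0.27), with probe sets averaged (0.11), with array weights (0.0080), without both arrays numbered 1 (0.014) or numbered 3 (0.012), and without knockdown array 1 (0.0043), knockdown array 3 (0.0029), wild type array 1 (0.0037) or wild type array 3 (0.0033). Rpl41, from −0.097 to 0.0055 over single arrays, did so in MAS5 (0.36), with probe sets averaged (0.088), at its probe set without a suffix (0.13) and without wild type array 2 (0.0055). Rps9 turned negative (−0.11) at its probe set without a suffix. The causes were not tested. With 3 arrays a group, a member that was not called may still differ by any amount within its 95% interval. Signals near the top of the range may no longer follow the amount of RNA, which was not tested.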
